A study of Homo sapiens with 12 samples.

Results

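Human BJ fibroblasts that received the T350A form of EZH2 and an siRNA against their own EZH2 were compared with control cells. The comparison takes 6 of the 12 arrays of the series, chosen by their titles: the 3 arrays of T350A re-expression minus the 3 arrays of si-Control. BJ is an established line of normal human skin fibroblasts. In T350A, the threonine of EZH2 that is studied here as a phosphorylation site is replaced by alanine, which cannot be phosphorylated. Per the labels, every group, controls included, received a lentivirus for 72 h and then an siRNA for 60 h. T350A re-expression had a lentivirus with siRNA-resistant T350A and an siRNA against EZH2. EZH2 re-expression had siRNA-resistant EZH2 without the mutation and the same siRNA. The si-EZH2 group had the control lentivirus (LV-C in the titles) and the siRNA against EZH2, and the si-Control group had the control lentivirus and a control siRNA. T350A re-expression therefore differs from si-Control in both the siRNA and the lentivirus, and si-EZH2 differs from si-Control in the siRNA alone. Each group had 3 arrays, numbered as replicates, and nothing in the labels says that these came from separate cultures, so the p-values reflect the scatter of these samples, which may be technical.

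EZH2 is the catalytic subunit of Polycomb repressive complex 2 (PRC2), which methylates histone H3 and keeps target genes silent. Its partners EED and SUZ12 are needed for activity, accessory subunits such as JARID2, AEBP2, MTF2 and PHF19 guide it to chromatin, and EZH1 is a second, weaker enzyme. PRC1, which ubiquitylates histone H2A, acts on many of the same genes. In fibroblasts PRC2 is best known for silencing HOX and other developmental regulators and the CDKN2A locus, whose activation is a mark of senescence.

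All 12 arrays lay on 1 chip, T350A re-expression in sections 2, 4 and 12 and si-Control in sections 1, 3 and 6. Between 20658 and 21910 of 47231 probes were detected per array (detection p under 0.05). The median SD of a probe between the 3 arrays of a group was 0.14 log2 units in T350A re-expression and 0.13 in si-Control. All 12 fibroblast markers, among them the collagen genes COL1A1 and COL1A2, were detected on every array of both groups, and their mean log2 intensity per gene was 13.5 to 13.6 in T350A re-expression and 13.6 to 13.7 in si-Control. Of markers of other cell types on the array, 5 of 10 epithelial (EPCAM, KRT8, KRT18, KRT19 and MUC1), 1 of 9 endothelial (TEK), 2 of 9 leukocyte (CD68 and CD14), 2 of 6 melanocyte (MITF and PMEL) and 3 of 6 smooth muscle markers (SMTN, LMOD1 and CNN1) were detected on all 3 arrays of both groups. Epithelial CDH1, endothelial PECAM1, CDH5 and VWF and leukocyte PTPRC were on the array and not among these. Arrays of whole cultures cannot tell fewer cells of a type from less RNA per cell.

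EZH2 itself was read by 3 probes, which did not move together. Probe ILMN_1652913, the brightest, had log2 intensities of 7.98, 8.06 and 7.93 with T350A, 8.46, 8.62 and 8.57 with EZH2, 5.46, 5.59 and 5.12 in si-EZH2, and 6.43, 6.13 and 6.41 in si-Control. On ILMN_2364529 the values were 7.20, 7.04 and 7.32 with T350A, 8.50, 8.46 and 8.47 with EZH2, and 5.86, 5.42 and 5.62 in si-Control, while no si-EZH2 array detected it. Both probes thus gave non-overlapping groups, with T350A above si-Control by 1.67 ± 0.125 and 1.55 ± 0.117 log2 units (limma, ± SE, adjusted p = 3.3e-06 for both, n = 3 each), which is 3.17-fold and 2.93-fold. The third, ILMN_1708105, went the other way, with 5.90, 6.14 and 5.70 under T350A, 5.86, 5.99 and 5.68 under EZH2, 5.56, 5.76 and 5.77 in si-EZH2, and 6.68, 6.96 and 6.72 in si-Control. There T350A lay 0.87 ± 0.129 log2 units below si-Control (T350A minus si-Control -0.87, limma adjusted p = 0.0023), and all 3 groups with the siRNA against EZH2 lay below the control arrays. The part of the transcript that each probe reads was not analysed here, so whether this probe misses the lentiviral transcript was not tested. On ILMN_2364529 T350A also lay below EZH2 re-expression, by -1.29 ± 0.117 log2 units (limma adjusted p = 0.00025), whereas on ILMN_1652913 the difference of -0.56 did not pass the test (limma adjusted p = 0.21).

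**Figure D1:**
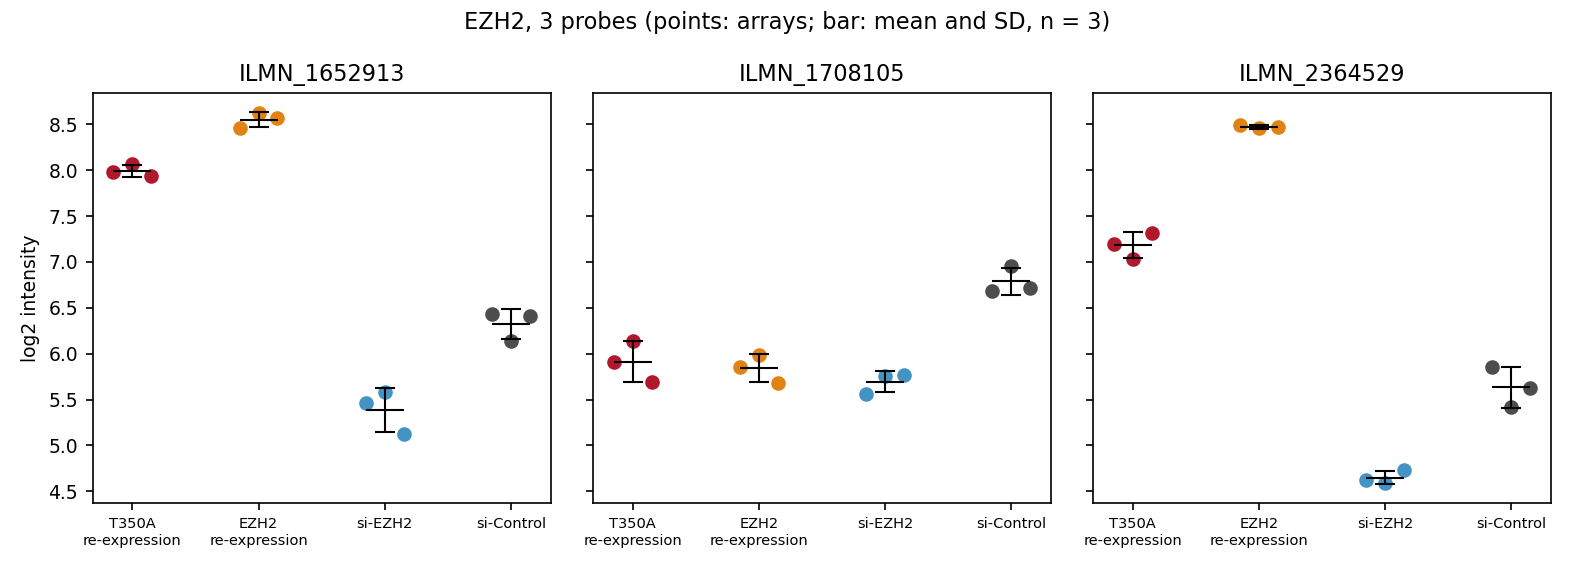
Log2 intensity of the 3 EZH2 probes on each of the 12 arrays (points) with group mean and SD (n = 3), for T350A re-expression, EZH2 re-expression, si-EZH2 and si-Control. On ILMN_1652913 and ILMN_2364529 the T350A arrays lie above si-Control and below EZH2 re-expression, and on ILMN_1708105 the 3 groups with the siRNA against EZH2 all lie below si-Control.

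The other 10 PRC2 subunits did not pass the test. MTF2 had the largest difference, 0.38 ± 0.136 log2 units (limma adjusted p = 0.14), and SUZ12 and EED differed by 0.13 and 0.02. EZH1 was at 4.92, 5.41 and 5.50 with T350A and at 5.35, 5.74 and 5.09 in si-Control, 2 overlapping groups close to the detection limit of the arrays.

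Of 23313 probes tested, 830 (3.56%) differed between T350A re-expression and si-Control at an adjusted p under 0.05 (limma, Benjamini-Hochberg over all tested probes). The calls were balanced, 407 higher and 423 lower with T350A, or 49% higher. With median scaling in place of quantile normalization 27.2% of 1000 calls were higher, so the balance of directions depends on the scaling. Changes were small: 157 of the higher and 133 of the lower calls reached 1.5-fold, and 22 and 4 reached 2-fold. Counted as genes, each by its brightest probe, 267 of 12640 (2.11%) rose and 265 (2.1%) fell. For comparison, the 3 T350A arrays lay above all 3 si-Control arrays for 1645 genes (13%) and below all 3 for 1680 (13.3%), and these counts include all 532 called genes. Leaving out 1 array lowered the number of called probes most for si-Control replicate 3 (344) and si-Control replicate 1 (361), and to 408, 438 and 469 without T350A replicates 1, 2 and 3.

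**Figure D2:**
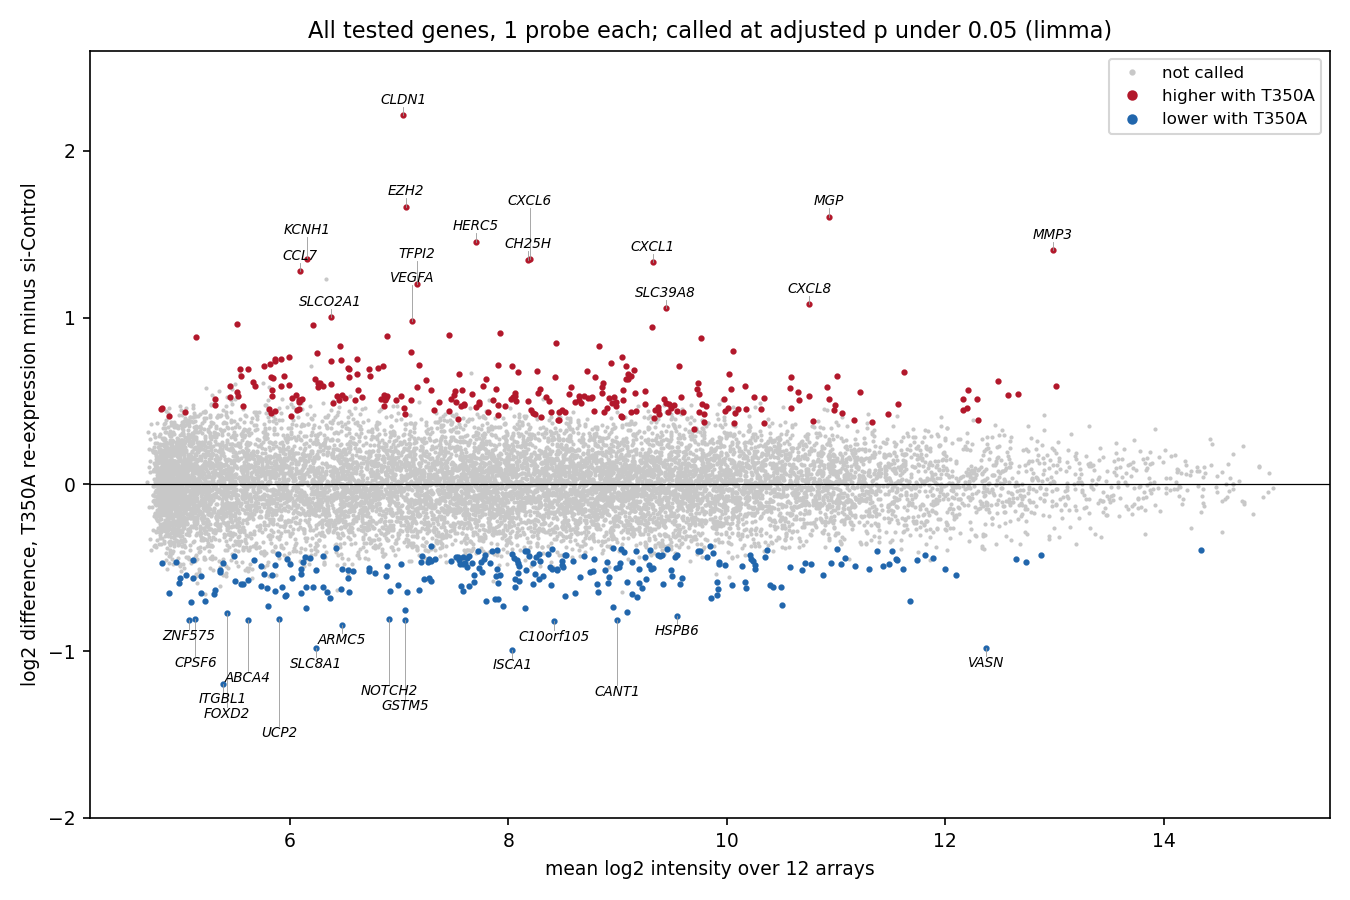
Log2 difference between T350A re-expression and si-Control (vertical axis, positive values higher with T350A) against mean log2 intensity over 12 arrays (horizontal axis) for the 12640 tested genes. The 267 genes that rose are red, the 265 that fell blue, the others grey, and the named genes are those with the largest changes. CLDN1, at 2.21, stands above all other genes.

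Calls were spread over the range of signal. Split by mean level into 3 equal groups of genes, 68, 108 and 91 rose and 67, 110 and 88 fell, from the lowest level to the highest. The median size of a called difference was 0.59 log2 units among the dimmest genes, 0.52 in the middle and 0.49 among the brightest. Of the called genes, 154 had another tested probe, and of their 199 other probes 163 had the same sign, 44 of them called. Another 36 had the opposite sign, and the EZH2 probe ILMN_1708105 was the 1 among these that was called.

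The gene with the largest rise was CLDN1, which encodes claudin-1, a barrier-forming protein of tight junctions. Its log2 intensity was 7.44, 7.43 and 7.50 with T350A and 4.996, 5.46 and 5.27 in si-Control, a difference of 2.21 ± 0.13 or 4.64-fold (limma adjusted p = 2.8e-07). The 2 groups were far apart. Without background correction the difference was 1.32, and it was still called. CLDN1 was also high in both other groups given the siRNA against EZH2, at 7.50, 7.23 and 7.68 with EZH2 and 7.97, 7.93 and 8.07 in si-EZH2. Other cell junction genes did not follow, since none of the other 15 tested passed, and the median over the list of 16 was -0.16 against -0.0025 over all tested genes. TJP1, the scaffold that claudins bind, differed by -0.42 (limma adjusted p = 0.071).

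MGP, a matrix protein that inhibits calcification, came next after EZH2. It stood at 11.53, 11.64 and 11.52 with T350A and 10.04, 9.84 and 9.99 in si-Control (1.60 ± 0.103, limma adjusted p = 6.4e-07), and its second probe gave 1.65. MGP was also 1 of the few genes that differed between T350A and si-EZH2, where it read 10.90, 10.87 and 11.01 (0.64 ± 0.103, limma adjusted p = 0.031). EZH2 re-expression, at 11.22, 11.43 and 11.20, also lay above si-EZH2 and si-Control, and T350A and EZH2 differed by 0.28 ± 0.103 (limma adjusted p = 0.47). The contrast with si-EZH2 shares the T350A arrays by which MGP was chosen.

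Among the remaining large rises were the ion and solute carriers KCNH1, SLC39A8 and SLCO2A1. KCNH1, a voltage-gated potassium channel, had 6.73, 6.35 and 6.64 with T350A and 5.07, 5.22 and 5.38 in si-Control (1.35 ± 0.125, limma adjusted p = 3e-05), a difference that was 0.71 without background correction. SLC39A8, which imports zinc and manganese, had 9.75, 9.43 and 9.47 with T350A and 8.48, 8.59 and 8.40 in si-Control (1.06 ± 0.104, limma adjusted p = 5.9e-05). It lay below si-EZH2, which had 10.22, 10.23 and 10.26 (T350A minus si-EZH2 -0.69 ± 0.104, limma adjusted p = 0.02). SLCO2A1, a prostaglandin uptake carrier, was at 6.57, 6.48 and 6.79 with T350A and 5.53, 5.57 and 5.74 in si-Control, 2.00-fold higher. The zinc list around SLC39A8 had 2 of 22 members that rose, the other being the metal-binding MT1G (0.50, limma adjusted p = 0.017), and a median of 0.096. These 2 made up 9.09% of the list, against 2.11% of all tested genes.

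CH25H, the enzyme that makes an antiviral oxysterol from cholesterol, had 8.65, 8.23 and 8.55 with T350A and 7.15, 7.10 and 7.15 in si-Control (1.35 ± 0.123, limma adjusted p = 2.7e-05). VEGFA, the main angiogenic growth factor, had 7.59, 7.63 and 7.56 with T350A and 6.40, 6.93 and 6.53 in si-Control (0.98 ± 0.14, limma adjusted p = 0.0018). The groups did not overlap for either gene. VEGFA was the 1 of 28 hypoxia and glycolysis genes that rose (3.57%, against 2.11% of all tested genes), and the median over that list was 0.12. ANGPTL4, a lipase inhibitor in the same list, named after its values were seen, had non-overlapping groups at 6.55, 6.44 and 6.58 with T350A and 4.95, 5.60 and 5.33 in si-Control. Its difference of 1.23 did not pass (limma SE 0.466, adjusted p = 0.16), and 1 si-EZH2 array, at 9.27 against 6.67 and 6.62 for the other two, enters the shared estimate of its spread.

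**Figure D3:**
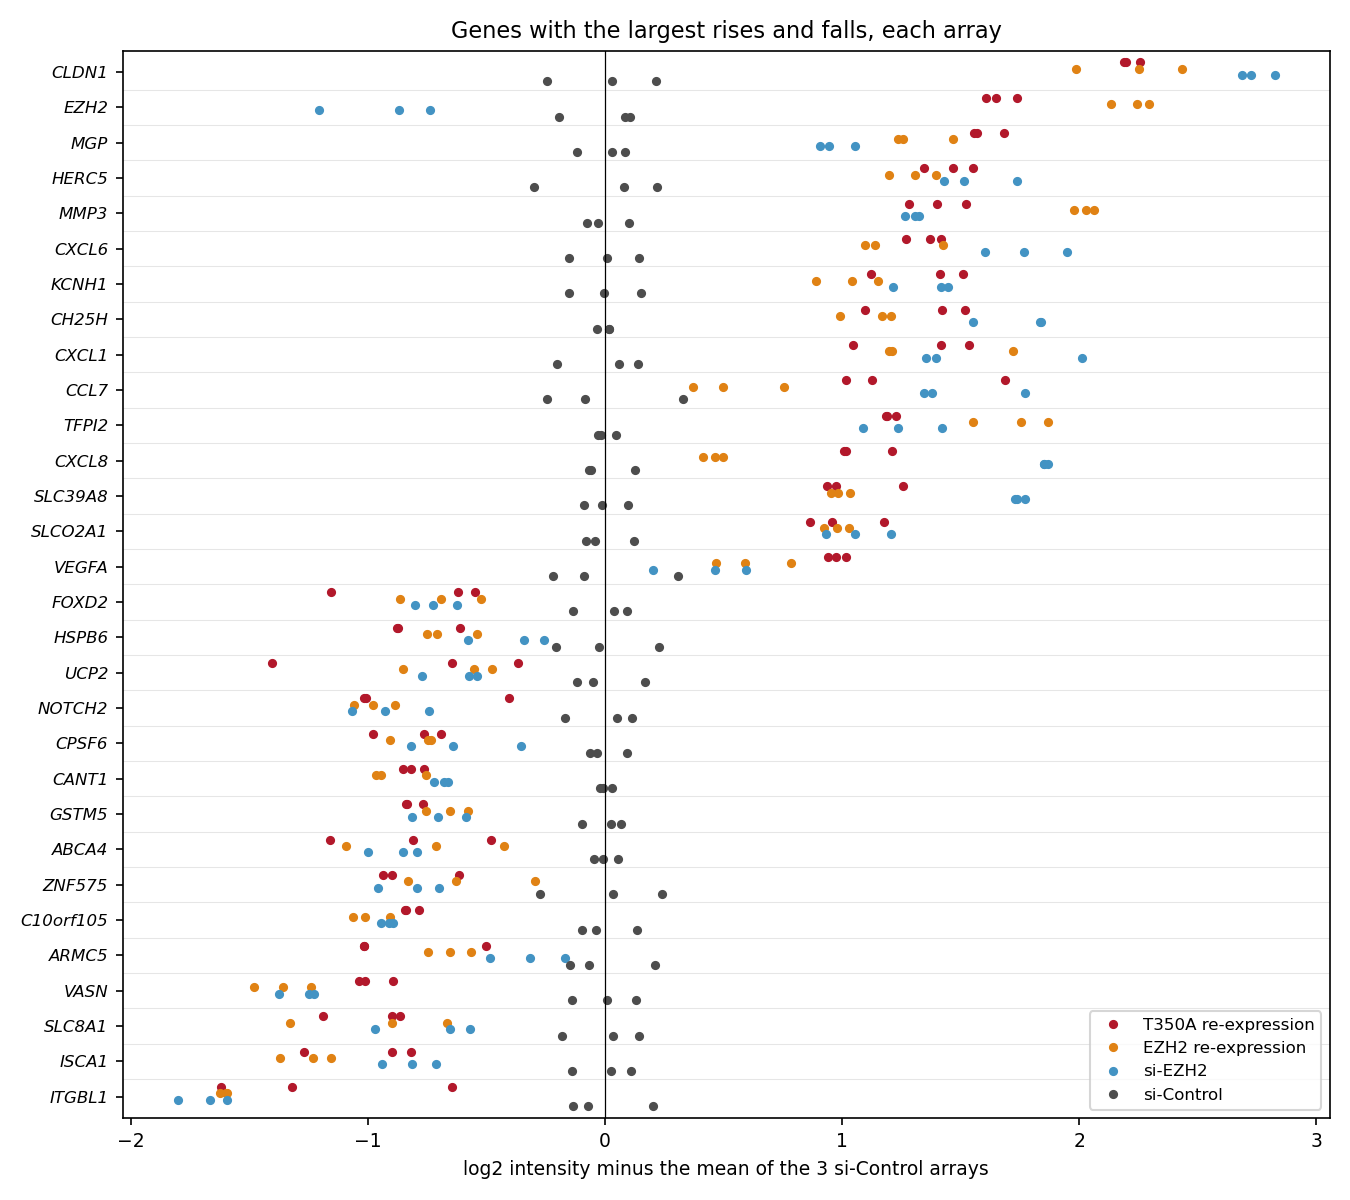
Log2 intensity minus the si-Control mean (horizontal axis) on each of the 12 arrays (points) for the 15 genes with the largest rises and the 15 with the largest falls in T350A re-expression, from CLDN1 at the top to ITGBL1 at the bottom. The T350A points lie to one side of all si-Control points in every row, as the rule for choosing these genes requires. The EZH2 re-expression mean lies on the T350A side of the si-Control mean for 30 of 30 genes. The si-EZH2 mean does so for 29, the exception being EZH2. Both counts use the si-Control arrays by which the genes were chosen, which favours the same side, so they are not independent agreement. The share over all tested genes was not computed.

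Secreted inflammatory genes made up the group with the most rises. Of 25 tested genes of the inflammatory and senescence-associated list 14 rose and none fell (0 at an adjusted p under 0.05, limma), against 2.11% of all genes that rose. Their median difference was 0.61, against -0.0025 over all tested genes. The list was written with earlier results of these data known, so its count is a description. Its mean shift from si-Control was 0.62, 0.53 and 0.62 log2 units on the 3 T350A arrays, 0.50, 0.47 and 0.50 with EZH2, and 0.93, 1.04 and 0.93 in si-EZH2.

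The chemokines were led by CXCL6, CXCL1 and CXCL8, which attract neutrophils. CXCL6 was at 8.48, 8.38 and 8.53 with T350A and 6.96, 7.12 and 7.25 in si-Control (1.35 ± 0.123, limma adjusted p = 2.7e-05), with 1.39 on its second probe. CXCL1 was at 9.29, 9.66 and 9.78 with T350A and 8.39, 8.31 and 8.05 in si-Control (1.33 ± 0.188, limma adjusted p = 0.0015). For both, the lowest T350A array was above the highest control array. CXCL8, also known as interleukin-8, had 10.91, 10.92 and 11.12 with T350A, 10.32, 10.37 and 10.40 with EZH2, 11.76, 11.78 and 11.76 in si-EZH2, and 10.03, 9.85 and 9.84 in si-Control. T350A exceeded si-Control by 1.08 ± 0.0978 (limma adjusted p = 2.7e-05) and was below si-EZH2 (-0.78 ± 0.0978, limma adjusted p = 0.0038). CCL7, which attracts monocytes, had 6.95, 6.39 and 6.28 with T350A and 5.02, 5.18 and 5.59 in si-Control, 2.42-fold higher (a log2 difference of 1.28, or 0.68 without background correction), and CXCL2 and CCL8 rose by 0.64 and 0.50.

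The interleukins of this list that rose were IL24 (0.89), IL6 (0.88), IL1B (0.80) and IL11 (0.72), with adjusted p from 0.001 to 0.018 in limma. IL1B, the inflammatory cytokine interleukin-1 beta, was at 10.28, 10.07 and 10.10 with T350A and 9.27, 9.47 and 9.30 in si-Control. IL24, a cytokine of the interleukin-10 family, was at 7.49, 7.62 and 7.42 with T350A, 8.61, 8.54 and 8.57 in si-EZH2, and 6.39, 6.85 and 6.62 in si-Control, and lay below si-EZH2 by a called difference (-1.06 ± 0.12, limma adjusted p = 0.0017). PTGS2, the inducible cyclooxygenase, and TNFAIP6, a hyaluronan-binding protein, rose by 0.51 and 0.68. IL1A and the secreted hormone STC1, named after their values were seen, were called lower than in si-EZH2 (-0.70 and -0.69, limma adjusted p = 0.031 and 0.018) but differed from si-Control by 0.33 and -0.06 (adjusted p = 0.12 and 0.82).

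Across the 14 genes that rose, the T350A mean was below the si-EZH2 mean for 13, the exception being MMP3, and it was below the EZH2 re-expression mean for 3, MMP3, MMP1 and CXCL1. Only CXCL8 and IL24 of these 14 passed the test against si-EZH2, and 0 passed it against EZH2 re-expression. All these comparisons share the T350A arrays. Over all tested probes 24 (0.103%) were called between T350A and si-EZH2, and 2 (0.00858%) between T350A and EZH2 re-expression. These last 2, named after their values were seen, were the EZH2 probe ILMN_2364529 and COG5, a Golgi trafficking subunit, at -0.83 ± 0.0999 (limma adjusted p = 0.0053). Against si-Control this COG5 probe differed by -0.72 (limma adjusted p = 0.0014), whereas the brighter COG5 probe differed by -0.01 and was not called.

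Promoter sequences of the risen inflammatory genes were searched for a short kappaB-type motif, GGNNTTTCC on either strand, since NF-kappaB is the classical activator of these chemokines. Sequences are from RefSeq, build GRCh38.p14, and the window was the 250 bases before the first start listed for each gene, since the 27305 genes had 35116 listed starts. The search was added after the results were seen and is a description, with no test. The motif was found in 5 of the 12 risen list members with a promoter sequence (CXCL8, CXCL1, CXCL2, CXCL6 and IL6), in 8 of 19 tested list members (42.1%), and in 5.48% of all genes in the promoter table. The same share was 5.98% over tested genes, 8.12% over all genes that rose and 3.65% over all that fell. When a match at any listed start counted, the shares were 42.1% of list members, 8.13% of tested genes, 10.2% of genes that rose and 8.22% of genes that fell. The last 130 bases before the start are shown for these 5 genes because they carry the matches, in capitals, on the gene's strand. CXCL8 lies at chr4:73740439-73740568 (plus strand), CXCL1 at chr4:73869263-73869392 (plus), CXCL2 at chr4:74099196-74099325 (minus), CXCL6 at chr4:73836548-73836677 (plus) and IL6 at chr7:22727070-22727199 (plus).
CXCL8: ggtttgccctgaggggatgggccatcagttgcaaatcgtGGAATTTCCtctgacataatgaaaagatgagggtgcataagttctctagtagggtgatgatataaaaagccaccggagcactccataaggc
CXCL1: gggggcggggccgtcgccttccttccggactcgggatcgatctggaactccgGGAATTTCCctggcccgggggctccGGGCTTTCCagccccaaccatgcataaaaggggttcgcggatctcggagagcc
CXCL2: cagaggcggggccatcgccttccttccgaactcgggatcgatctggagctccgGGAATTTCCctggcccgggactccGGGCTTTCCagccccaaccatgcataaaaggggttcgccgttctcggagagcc
CXCL6: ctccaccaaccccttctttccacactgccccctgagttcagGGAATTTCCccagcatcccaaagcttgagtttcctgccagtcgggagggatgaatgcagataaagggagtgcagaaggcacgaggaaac
IL6: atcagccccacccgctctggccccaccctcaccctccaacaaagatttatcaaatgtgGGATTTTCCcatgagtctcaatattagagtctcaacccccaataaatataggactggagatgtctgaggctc
CXCL1 and CXCL2 each hold 2 matches, with the first bases at -78 and -53 in CXCL1 and at -77 and -53 in CXCL2, and both genes share the letters of these matches. The single matches begin at -91 in CXCL8, -89 in CXCL6 and -72 in IL6.

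Genes of the NF-kappaB pathway and its feedback moved less. Of 19 tested 4 rose (21%, against 2.11% of all tested genes) and 0 fell, with a median of 0.22. They were IRAK2, a kinase downstream of the interleukin-1 receptor (0.63 ± 0.129, limma adjusted p = 0.015), SOD2, the mitochondrial superoxide dismutase (0.57, adjusted p = 0.012), NFKBIE, an inhibitor of NF-kappaB (0.53, adjusted p = 0.013), and NFKBIZ, a nuclear coactivator (0.46, adjusted p = 0.03). SOD2 was at 12.43, 12.24 and 12.36 with T350A and at 11.88, 11.65 and 11.81 in si-Control. Another SOD2 probe gave 0.78 (limma adjusted p = 0.0047), and a dimmer one gave 0.28 and was not called. Under alternative processing or with an array left out, NFKBIZ lost its call in 7 settings, IRAK2 in 2, and NFKBIE and SOD2 in 1 each. TNFAIP3, the feedback inhibitor, differed by 0.41 and did not pass (limma adjusted p = 0.065).

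Interferon-stimulated genes were the second large group. Of 40 tested 12 rose (30%, against 2.11% of all tested genes) and 0 fell (against 2.1%). By any amount 30 were higher than in si-Control, against 6256 of all 12640 tested genes. The list median was 0.31, against -0.0025. The mean shift of the list was 0.29, 0.29 and 0.30 on the 3 T350A arrays, 0.31, 0.28 and 0.25 with EZH2, and 0.39, 0.42 and 0.41 in si-EZH2. The count of risen members fell to 6 when si-Control replicate 1 was left out and to 7 when only the 6 arrays compared were fitted, and was 19 with the authors' values.

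HERC5, the ligase that attaches the ubiquitin-like ISG15 to new proteins, was at 8.09, 7.97 and 8.18 with T350A and 6.33, 6.71 and 6.84 in si-Control (1.46 ± 0.132, 2.74-fold, limma adjusted p = 2.7e-05). The other risen members changed less, from 0.45 for the GTPase GBP1 to 0.83 for OAS1. OAS1, OAS2 and OAS3, which make the messenger that activates RNase L, rose by 0.83, 0.77 and 0.55, although the other 3 probes of OAS2 gave 0.23 to 0.35 and were not called. The antiviral GTPases MX1 and MX2 rose by 0.65 and 0.54, the RNA sensor RIGI by 0.53 and the transcription factor IRF7 by 0.49. EPSTI1 was at 10.10, 10.07 and 10.14 with T350A and at 9.45, 9.35 and 9.54 in si-Control (0.66 ± 0.091, limma adjusted p = 0.0013), and IFI27 and IFI44L rose by 0.54 and 0.49. The T350A mean was below the si-EZH2 mean for 11 of the 12, GBP1 being the exception, and 0 of the 12 passed the test against si-EZH2 (limma).

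A short interferon-response-type motif, GAAANNGAA on either strand, was searched in the same window. It was found in 6 of the 9 risen interferon-stimulated genes with a promoter sequence (GBP1, EPSTI1, OAS3, IFI44L, HERC5 and IFI27), in 20 of 32 tested list members (62.5%), and in 7.06% of all genes in the table. The share was 5.57% over tested genes, 8.12% over all genes that rose and 3.65% over all that fell. With any listed start it was 68.8% of list members, 7.65% of tested genes, 9.64% of genes that rose and 6.85% of genes that fell. HERC5, chr4:88456989-88457118 (plus strand), and EPSTI1, chr13:42992242-42992371 (minus strand), are shown as the member with the largest rise and the member with the next smallest adjusted p. Capitals mark the matches.
HERC5: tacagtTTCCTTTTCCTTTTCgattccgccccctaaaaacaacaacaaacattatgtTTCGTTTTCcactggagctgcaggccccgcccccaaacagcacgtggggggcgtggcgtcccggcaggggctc
EPSTI1: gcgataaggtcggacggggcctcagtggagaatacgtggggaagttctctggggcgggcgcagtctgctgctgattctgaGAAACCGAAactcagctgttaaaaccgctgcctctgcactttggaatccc
HERC5 holds 3 matches, 2 of which overlap (first bases at -124, -118 and -73), all read on the opposite strand, and EPSTI1 holds 1 at -50. MX1, RIGI and OAS1 rose without a match in the window of the first start, and OAS2, IRF7 and MX2 were not among the promoter sequences. Genes of MHC class I antigen presentation, many of which interferon also induces, had 0 of 16 called in either direction by limma, a median of 0.099, and 13 that were higher by any amount. Over all tested genes 6256 of 12640 were higher by any amount. The largest differences were TAP2 (0.36) and TAP1 (0.35), the subunits of the peptide transporter, and its partner TAPBP (-0.35), with adjusted p of 0.28, 0.1 and 0.062.

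**Figure D4:**
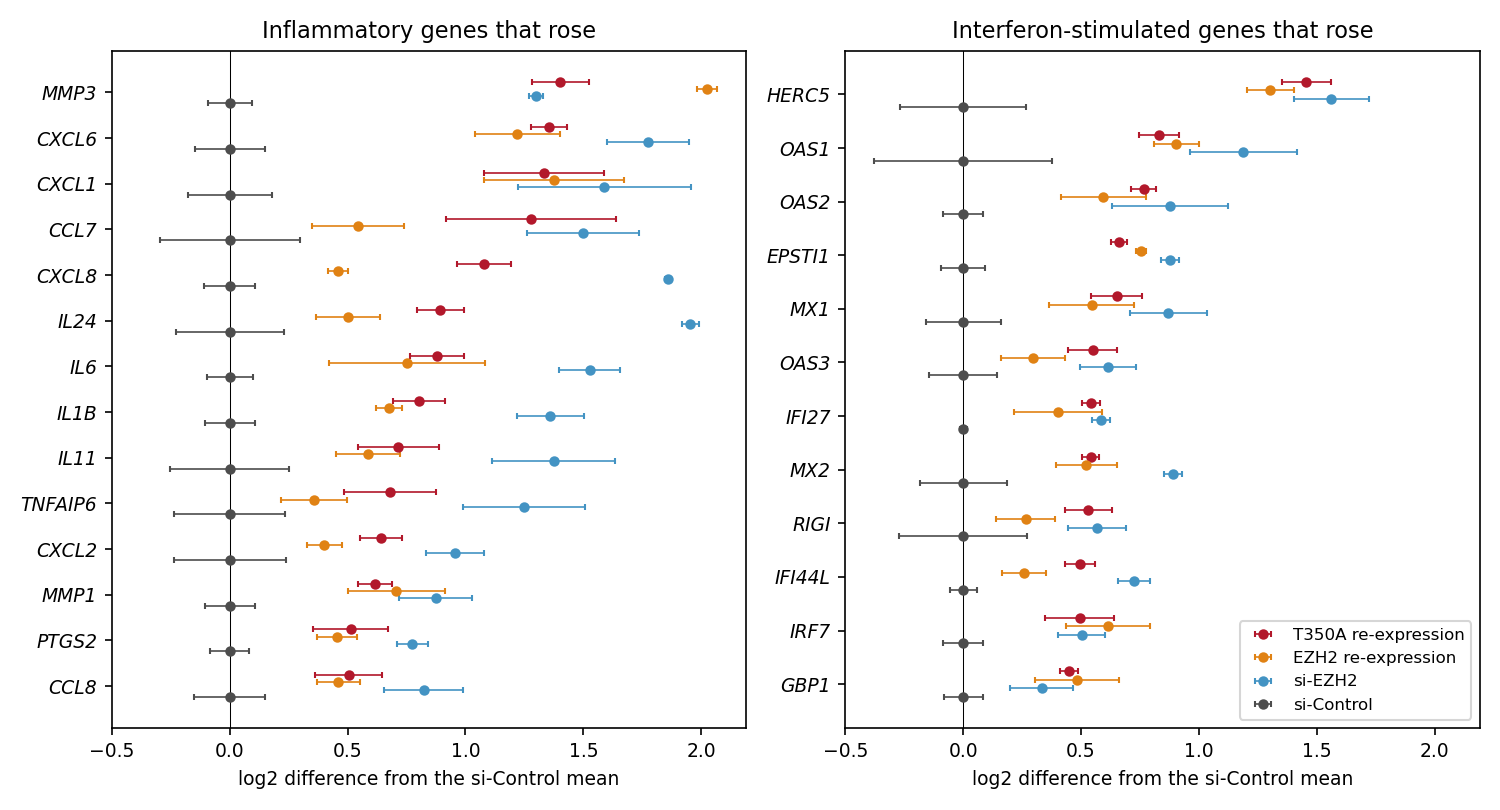
Group means with SD (n = 3 arrays each) as log2 difference from the si-Control mean, for the 14 inflammatory genes (left) and the 12 interferon-stimulated genes (right) that rose in T350A re-expression. T350A means lie above si-Control for each gene, and below si-EZH2 for 13 of 14 and 11 of 12.

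Matrix proteases and their inhibitors had 5 members that rose and 1 that fell among 21, with a median of 0.17. These shares were 23.8% and 4.76%, against 2.11% and 2.1% of all tested genes. MMP3 and MMP1 are also members of the inflammatory and senescence-associated list and were counted among its rises, so the groups overlap. MMP3, a protease of broad specificity, was at 13.09, 13.33 and 13.20 with T350A, 13.84, 13.78 and 13.87 with EZH2, 13.13, 13.11 and 13.07 in si-EZH2, and 11.73, 11.91 and 11.78 in si-Control (T350A minus si-Control 1.40 ± 0.0976, limma adjusted p = 1.6e-06). T350A and si-EZH2 differed by 0.10 ± 0.0976 (limma adjusted p = 0.7), and the 3 arrays with EZH2 were the highest. TFPI2, a secreted inhibitor of serine proteases, was at 7.35, 7.31 and 7.31 with T350A and 6.10, 6.10 and 6.17 in si-Control (1.20 ± 0.11, limma adjusted p = 2.7e-05). The collagenase MMP1, the urokinase gene PLAU and its receptor PLAUR rose by 0.62, 0.55 and 0.63, and MMP11 fell by 0.62 (T350A minus si-Control -0.62, limma adjusted p = 0.015). Fibroblast matrix genes had 4 of 39 that rose (10.3%, against 2.11% of all tested genes) and 0 that fell, and a median of 0.053. Beside MGP these were the collagen COL8A1 (0.67), tenascin-C, TNC (0.54), and the proteoglycan versican, VCAN (0.44, limma adjusted p = 0.037).

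**Figure D5:**
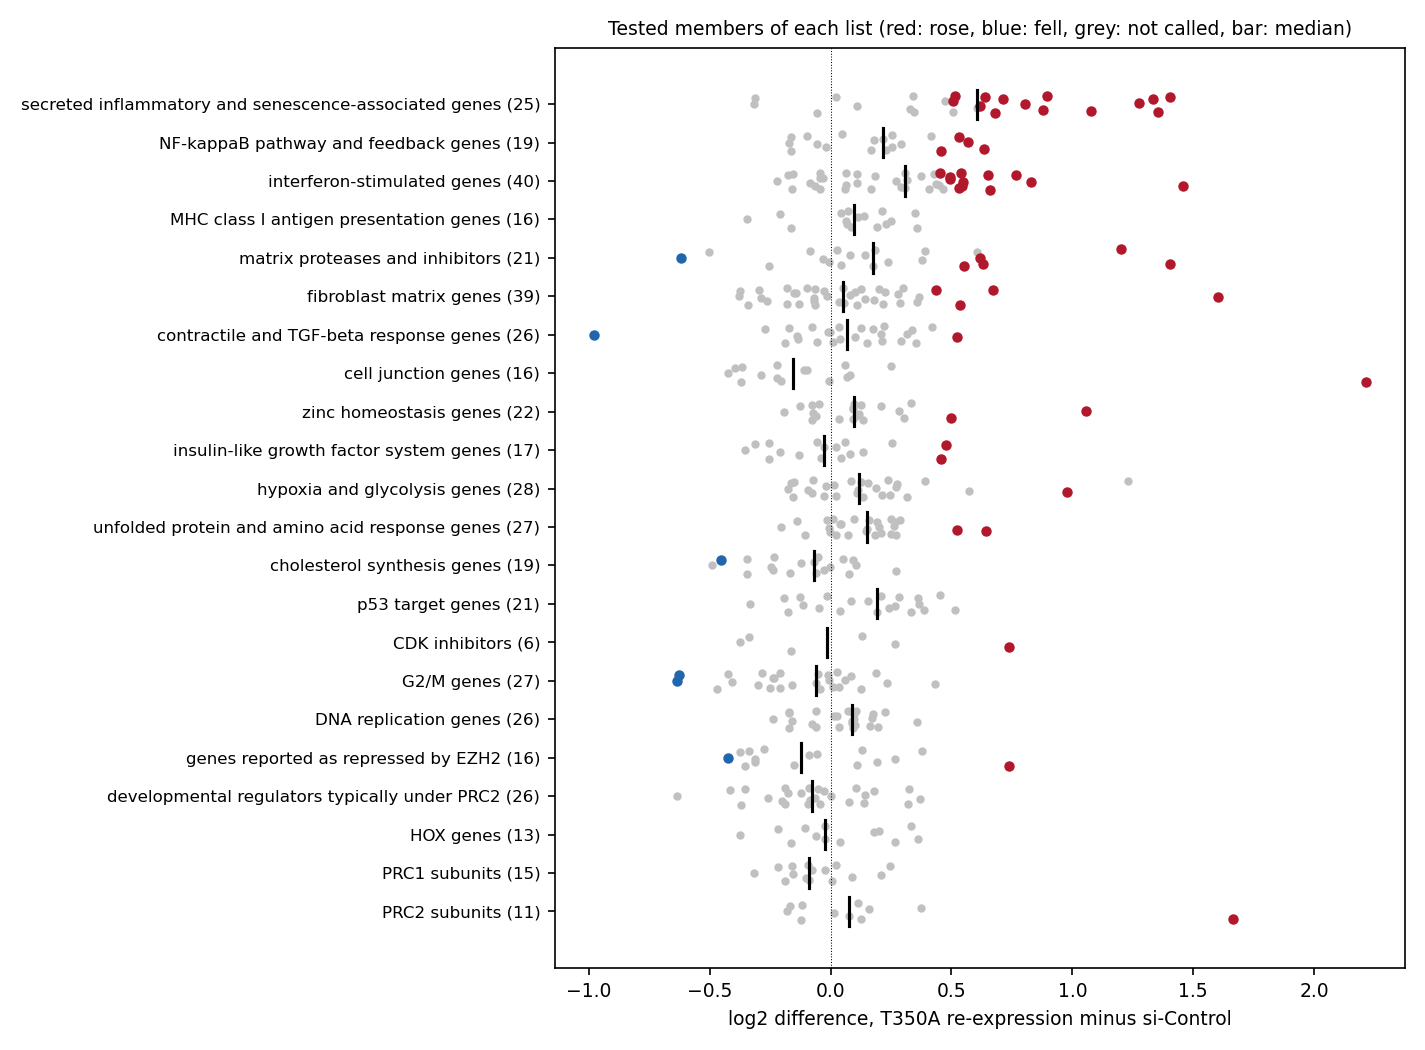
Log2 difference between T350A re-expression and si-Control (horizontal axis) of every tested member of 22 gene lists (rows, number tested in parentheses), with called rises in red, called falls in blue, other members in grey and the median as a bar. The inflammatory list, with 14 of 25 red and a median of 0.61, lies farthest to the right, and the HOX and PRC1 lists have no coloured point.

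Known targets of Polycomb repression were called at shares close to those over all genes (2.11% rose and 2.1% fell). HOX genes had 0 of 13 tested members called in either direction by limma, with a median of -0.021 and values from -0.37 to 0.36. Developmental regulators typically under PRC2 had 0 of 26 called and a median of -0.075, the largest differences being TBX5 (-0.63) and TBX2 (-0.41, adjusted p = 0.079 and 0.054), both T-box transcription factors. PRC1 subunits, which are parts of the Polycomb machinery and not a list of its targets, had 0 of 15 called and a median of -0.091. The detection filter left 13 of 39 listed HOX genes and 26 of 51 developmental regulators to test, so genes that stayed silent in all groups are not in these counts.

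Of 16 tested genes reported as repressed by EZH2, 1 rose and 1 fell, 6.25% each, and the median was -0.12. Over all tested genes 2.11% rose and 2.1% fell. CDKN2A, which encodes a CDK inhibitor and ARF, was at 6.08, 6.25 and 6.21 with T350A, 6.26, 6.03 and 5.98 with EZH2, 5.92, 5.73 and 5.63 in si-EZH2, and 5.58, 5.51 and 5.23 in si-Control (T350A minus si-Control 0.74 ± 0.122, limma adjusted p = 0.0047). Its second probe differed by 0.09 and was not called (limma adjusted p = 0.77). PEBP1, an inhibitor of Raf kinase signalling, was at 11.81, 11.62 and 11.76 with T350A and 12.24, 12.05 and 12.17 in si-Control (-0.42 ± 0.1, limma adjusted p = 0.03), so it was lower with T350A. The other CDK inhibitors did not pass. CDKN1C differed by -0.37, CDKN1A by 0.27 and CDKN1B by -0.34 (adjusted p = 0.1, 0.2 and 0.23).

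Among 27 G2/M genes 2 fell and 0 rose (limma), 7.41% that fell against 2.1% of all genes, with a median of -0.058. The mean shift of the list from si-Control was -0.13, -0.14 and -0.12 on the 3 T350A arrays. It was 0.15, 0.19 and 0.12 with EZH2, and -0.37, -0.09 and -0.40 in si-EZH2. The list median of T350A minus EZH2 re-expression was -0.32, and of the 2 genes that fell 0 passed that comparison (limma). KIF11, the mitotic spindle kinesin, was at 6.91, 6.83 and 7.12 with T350A and 7.69, 7.50 and 7.58 in si-Control (-0.63 ± 0.11, limma adjusted p = 0.0059), though its second probe gave -0.25 and was not called. FOXM1, the transcription factor that drives G2/M genes, was at 6.63, 6.26 and 6.33 with T350A and 7.15, 6.97 and 6.97 in si-Control (-0.63 ± 0.133, limma adjusted p = 0.019), and -0.71 on its second probe. DNA replication genes had 0 of 26 called by limma and a median of 0.088, and p53 target genes 0 of 21 and a median of 0.19. The p53 targets GADD45A and DDB2 came close to the threshold (0.45 and 0.37, adjusted p = 0.053 and 0.05 after rounding).

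The genes with the largest falls belong to no single list. ITGBL1, a secreted protein related to integrin beta chains, was at 4.89, 5.19 and 5.86 with T350A and 6.44, 6.71 and 6.38 in si-Control (-1.19 ± 0.181, limma adjusted p = 0.0028), or -0.63 without background correction. It was detected on 2 of 3 T350A arrays, on 1 with EZH2 and on 0 in si-EZH2, and on all 3 in si-Control. ISCA1, which builds mitochondrial iron-sulfur clusters, was at 7.91, 7.53 and 7.99 with T350A and 8.91, 8.83 and 8.66 in si-Control (-0.99 ± 0.126, limma adjusted p = 0.00078), with -0.80 on its second probe. SLC8A1, the sodium-calcium exchanger, was at 6.04, 6.01 and 5.72 with T350A and 7.05, 6.94 and 6.73 in si-Control (-0.98 ± 0.162, limma adjusted p = 0.0047).

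VASN, a membrane protein that binds TGF-beta, was the brightest of these genes, at 12.27, 12.38 and 12.24 with T350A and 13.29, 13.41 and 13.14 in si-Control. T350A was lower by a wide margin (-0.98 ± 0.106, limma adjusted p = 0.00016). The same was seen in its list of contractile and TGF-beta response genes for no other member, while SMAD6, an inhibitor of BMP signalling, rose (0.52, limma adjusted p = 0.022), and the median over 26 members was 0.070. SMAD6 was at 8.98, 9.31 and 8.94 with T350A, 8.96, 9.03 and 8.96 with EZH2, 8.41, 8.62 and 8.35 in si-EZH2, and 8.48, 8.62 and 8.56 in si-Control.

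The other genes with large falls lay between -0.84 and -0.77. They were ARMC5, an armadillo repeat protein, C10orf105, the zinc finger gene ZNF575, the lipid transporter ABCA4, the glutathione transferase GSTM5, the nucleotidase CANT1, the RNA 3' end processing factor CPSF6, the receptor NOTCH2, the mitochondrial carrier UCP2, the small heat shock protein HSPB6 and the forkhead factor FOXD2. CANT1 had the smallest SE of these 11, with 8.78, 8.83 and 8.74 under T350A and 9.59, 9.62 and 9.57 in si-Control (-0.81 ± 0.0936, limma adjusted p = 0.00029). UCP2 was the least certain, at 5.77, 6.05 and 5.01 with T350A and 6.30, 6.37 and 6.58 in si-Control (-0.81 ± 0.198, limma adjusted p = 0.036), with an adjusted p of 0.124 when si-Control replicate 3 was left out and a difference of -0.51 when T350A replicate 3 was left out. ABCA4 and ZNF575 also lost their calls when 1 array was left out (highest adjusted p 0.066 without T350A replicate 1 and 0.051 without si-Control replicate 3).

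Other lists held 1 or 2 calls each, beside 2.11% of all tested genes that rose and 2.1% that fell. In the insulin-like growth factor system PAPPA, the protease that frees the growth factor from its binding proteins, and its inhibitor STC2 rose (0.48 and 0.46, limma adjusted p = 0.016 and 0.047), 2 of 17 tested with a median of -0.028. SLC7A5, which takes up large neutral amino acids, and the chaperone cofactor DNAJB9 rose among 27 unfolded protein and amino acid response genes (0.64 and 0.52, limma adjusted p = 0.0039 and 0.036, list median 0.15). INSIG1, which restrains cholesterol synthesis, fell among 19 cholesterol genes (-0.45, limma adjusted p = 0.038, list median -0.068). A dimmer INSIG1 probe gave -0.86 (limma adjusted p = 0.0028). The brightest probe of LSS, another cholesterol synthesis gene, was not called. Of its dimmer probes, ILMN_1687863 was called at -0.71 (limma adjusted p = 0.01), and ILMN_1658271 gave -0.34 and was not called. Among 5 tested epithelial markers the adhesion molecule EPCAM fell, with 5.36, 5.67 and 5.41 under T350A and 6.06, 6.11 and 6.13 in si-Control (-0.62 ± 0.106, limma adjusted p = 0.0055). Its second probe gave -0.49 and was not called (limma adjusted p = 0.082). Of the 5 markers 3 were higher and 2 lower by any amount, with a list median of 0.051. Endothelial, leukocyte, melanocyte and smooth muscle markers had 0 called members of 1, 4, 2 and 4 tested (limma), and the 12 fibroblast markers had 0 called and a median of -0.10.

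Some probes were detected in 1 of the 2 groups only. With T350A on 3 of 3 arrays and in si-Control on 0 of 3, there were 69 of 23313 tested probes, 9 of them called. In the opposite direction there were 61, 14 of them called, while 3.56% of all tested probes were called. At a detection p under 0.01 the first count was 33. For probes detected in 1 group only the fold is a lower bound, set against the detection limit of each array. CEACAM1, an adhesion molecule, was at least 1.32-fold higher with T350A (adjusted p = 0.0027, limma) and was also detected on all 3 EZH2 re-expression arrays and on 2 si-EZH2 arrays, though its second probe differed by 0.12. TAF8, a subunit of the general transcription factor TFIID, HGD, an enzyme of tyrosine breakdown, and the noncoding SNHG10 had bounds of at least 1.36-fold, 1.31-fold and 1.27-fold higher and were not called, and a brighter TAF8 probe, detected on all arrays of both groups, differed by -0.0039. Lower with T350A were the protocadherin PCDHGB5, by at least 1.55-fold, EPS8L2, a regulator of actin, by at least 1.47-fold, TGFBR3L by at least 1.43-fold, and HSPG2, the basement membrane proteoglycan perlecan, by at least 1.35-fold, all called (adjusted p from 0.0041 to 0.026). PCDHGB5, EPS8L2 and HSPG2 were detected on all 3 si-EZH2 arrays and TGFBR3L on 2. With EZH2, EPS8L2 was detected on 3 arrays, PCDHGB5 and TGFBR3L on 2 and HSPG2 on 0. EPS8L2 had a second probe with a difference of 0.11, in the other direction. The second TGFBR3L probe was detected on 2 T350A arrays and differed by -0.52, not called (limma adjusted p = 0.089). HSPG2 lost its call in 7 alternative settings, among them without si-Control replicate 2 (limma adjusted p = 0.084).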

How the data were processed

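RNA of 12 BJ cell samples was measured on Illumina BeadChips. The deposited non-normalized table gave 1 raw intensity per probe and array on a linear scale, not background-subtracted, and beside it a detection p-value, per the file headers, in steps of 1 in 770. A second deposited table held intensity values normalized by the authors, a monotone function of each array's raw signal, used as an alternative only. Its method, and an aligner or build, are not given in the sources used here. RNA was extracted with a Qiagen RNeasy kit and labelled with an Ambion MessageAmp kit, per the labels' protocols. All columns of values were matched to samples (0 unmatched).

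From the deposited intensities, log2 values were computed with neqc in limma 3.58.1 (R 4.3.3, jsonlite 2.0.0): normexp background from the detection p-values, an offset of 16, then quantile normalization. Testing was limited to probes detected (p under 0.05) on 3 or more of the 12 arrays (23313, of which 17151 with 1 symbol, covering 12640 genes). Linear models with 1 mean per group were fitted to all 12 arrays (lmFit and eBayes, 8 residual and 7.29 prior degrees of freedom, 2-sided), with Benjamini-Hochberg adjustment over tested probes of each comparison, called at 0.05. Errors are limma SEs. Symbols came from the platform annotation (30113 probes with 1 symbol, 8 with several, 17110 with none), of which 30074 had an entry in the RefSeq gene table. A gene was represented by its brightest probe over 12 arrays, and other probes were checked.

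Genes named were the 15 with the largest rise and the 15 with the largest fall among called genes whose arrays did not overlap, the 4 largest bounds in each direction, in each of 28 lists up to 4 members lowest in adjusted p, and every subunit of PRC2; other list members were named for completeness of a described group. The comparison, its lists and the rule were chosen with earlier results of these data known, and the motif search and the sequences shown were chosen after the values were seen. Lists were described by counts and medians, with no set test. Motifs were searched with Python 3.11.15 and pandas 2.3.3 in RefSeq promoters (GRCh38.p14), and figures drawn with matplotlib 3.10.9. Alternatives were no background correction, an offset of 50, median scaling, the authors' values, other filters, array weights, limma-trend (robust), a fit of the 6 compared arrays alone, chip section as a covariate, a block for replicate number, a fold of 1.5, 1 probe per gene, and each array left out. The pipeline was tested on simulated data. The number of arrays limits the precision.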

Additional observations from a re-analysis of the deposited data

How the results depend on the processing

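The number of probes called between T350A re-expression and si-Control, 830, varied with the processing. It was 1671 without background correction, 1650 with an offset of 50, 1516 with the authors' values (56.7% higher with T350A, against 49%), 1498 for probes with detection p under 0.01 on all 12 arrays, and 1536 with limma-trend and robust moderation. It was 313 when only the 2 groups were fitted, 290 with a fold of at least 1.5, and 344 to 852 when each array was left out in turn. The cause was not tested, except that fewer arrays or a further threshold were used in these last settings. Of the 830 probes, 306 were also called when only the 2 groups were fitted. Risen inflammatory genes numbered 10 to 16 over all settings. Risen interferon-stimulated genes numbered 19 with the authors' values, 7 with only the 2 groups, and 6 to 13 when an array was left out. Probes detected in T350A only numbered 33 at a detection p under 0.01. Among list medians, that of fibroblast matrix genes was -0.01035 and that of epithelial markers -0.02846 with median scaling. The median over all tested probes was then -0.053, against 0.0004 in the main setting, so both lists still lay above it. With 1 array left out in turn, the medians ranged from -0.04855 to 0.02692 for CDK inhibitors, from -0.05173 to 0.02829 for insulin-like growth factor system genes and from -0.0141 to 0.09725 for epithelial markers. The 59 called genes that were named kept their sign in all 1402 checks, and 97 checks in 17 genes lost the call, most often STC2 (15), INSIG1 (11), VCAN (10) and DNAJB9 (10). For the 29 genes with the largest changes other than EZH2, 12 of 687 checks lost the call, in UCP2 (9), ABCA4 (2) and ZNF575 (1). Their sizes depended on the background: 13 of these 29 log2 differences were over 1.5 times smaller without background correction (CLDN1 1.32, KCNH1 0.71, CCL7 0.68, TFPI2 0.79, SLCO2A1 0.56, ITGBL1 -0.63, SLC8A1 -0.60, ARMC5 -0.52, ZNF575 -0.38, ABCA4 -0.41, CPSF6 -0.37, UCP2 -0.43 and FOXD2 -0.37), 9 of them also with the authors' values and 8 with an offset of 50, all still called. With the filter of detection p under 0.01 on all 12 arrays, 2 of the 3 EZH2 probes had no value. Same-numbered arrays agreed only weakly: their deviations from the group mean correlated at 0.0184, 0.0356 and 0.0652 across probes, all under 0.1. Each T350A array nevertheless correlated best with its own number, and differently numbered arrays correlated at -0.0511 to 0.0159. With the replicate number as a block 744 probes were called, 691 of them among the 830. Chip section as a covariate gave 597 called probes, 523 of them among the 830.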
